A study of Homo sapiens with 21 samples.

Results

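The comparison described here asked which transcript responses to trastuzumab, a therapeutic antibody that binds the receptor HER2, were still present after AU565 cells had been moved into 3D culture. AU565 is a human breast cancer line, epithelial and wild type per the labels, that carries many copies of ERBB2, the gene for HER2, and depends on that receptor for growth. The comparison used 12 of the 21 libraries of the series, 3 in each of 4 groups, taken by their labels. Primed aggregates came from cells given trastuzumab at 20 µg/ml for 24 h as a monolayer and then kept for 96 h in liquid overlay with 5% matrigel. Untreated aggregates had the same 96 h in liquid overlay and matrigel without antibody. Acutely exposed monolayers had 20 µg/ml for 24 h and were harvested at once, and untreated monolayers were their control. All cells were kept in RPMI with 10% serum. The labels do not say whether replicates were separate cultures. P-values therefore reflect only how far libraries of a group spread, and part of that spread may be technical. The spread was estimated jointly over all 7 groups of the series, so libraries outside these 4 groups also shaped it.

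For each gene, the priming response was the log2 ratio of primed to untreated aggregates, the acute response was the log2 ratio of acutely exposed to untreated monolayers, and the difference was the priming response minus the acute response. The priming and the acute response share no library. The acute response was read at the end of the exposure and the priming response 96 h after it, so culture form and time since exposure cannot be told apart. Levels are given in CPM, counts scaled to one library total, shown as the 3 libraries of a group, and log2 values carry their standard error (SE). A gene was called when edgeR's quasi-likelihood test gave a Benjamini-Hochberg adjusted p under 0.05 over all 15969 genes tested. A response was kept when both responses were called in the same direction and the difference was not, which does not show that the sizes were equal. It was kept with another size when the difference was called too. A response was lost when the acute response and the difference were called and the priming response was not, new when the priming response and the difference were called and the acute response was not, and opposite when both responses were called with opposite signs and the difference was called.

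HER2 pairs with HER3 and other family members and drives the PI3K and AKT pathway and the RAS and ERK (MAPK) pathway. When AKT activity falls, FOXO transcription factors enter the nucleus and raise receptors such as INSR and HER3, while ERK activity is held in check by its own induced inhibitors, the Sprouty and dual-specificity phosphatase families. AKT and mTOR signalling also supports HIF-1, the transcription factor of low oxygen that drives glycolysis genes, and SREBP-2, which drives cholesterol synthesis genes.

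The 12 libraries held 16939524 to 24722679 counts. The defining markers of breast epithelium summed to 13661 to 14403 CPM in primed aggregates, 12289 to 13024 in untreated aggregates, 16754 to 17036 in acutely exposed monolayers and 13916 to 14968 in untreated monolayers, and none of the 10 was at 0 in any group. These 10 include ERBB2 and GRB7, which rose in both responses and whose levels are given below. The sums therefore also carry those responses and do not measure epithelial content by itself. Some properties of the libraries moved with the groups. The 9 melanocyte markers summed to 63.8 to 103.9 CPM in primed aggregates, against 24.6 to 34.0 in untreated aggregates, and to 46.5 to 107.8 CPM in acutely exposed monolayers, against 60.4 to 130.1 in untreated monolayers, with none of the 9 at 0 in any group. In such bulk libraries fewer cells of a type and less RNA per cell cannot be told apart. The cardiac myosin MYH7 exceeded 10 CPM in 6 libraries, namely replicates 1 and 2 of the untreated aggregates, 2 and 3 of the acutely exposed monolayers and 1 and 2 of the untreated monolayers; 1 of the 11 striated muscle markers was at 0 in primed aggregates. These 11 summed to 149.1 to 153.3 CPM in primed aggregates, 205.4 to 253.3 in untreated aggregates, 99.9 to 195.1 in acutely exposed monolayers and 134.8 to 337.8 in untreated monolayers. The 11 mesenchymal markers summed to 101.8 to 125.0 CPM in primed and 81.8 to 102.4 in untreated aggregates. In monolayers they summed to 62.4 to 80.9 CPM after acute exposure and 63.6 to 109.6 without it. Of these 11, 3 had a called difference, all higher. The responses also followed the GC content of the transcripts: with 15566 genes in 10 equal bins of GC content, the median priming response was -0.09 in the highest bin, against 0.05 in the lowest, and the median acute response was 0.10 in the highest bin, against -0.12 in the lowest. Across these genes Spearman's rho with GC content was -0.15 for the priming response and 0.25 for the acute response. With transcript length it was 0.24 for the priming response and 0.00 for the acute response. Mitochondrial rRNA took 2.62 to 2.77% of counts in primed aggregates, 2.5 to 2.75% in untreated aggregates, 0.903 to 0.951% in acutely exposed monolayers and 0.925 to 1.14% in untreated monolayers. The part of these properties in the results was not tested. Values with a GC and length offset or without the 6 libraries with MYH7 stand beside results they touch.

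**Figure D1:**
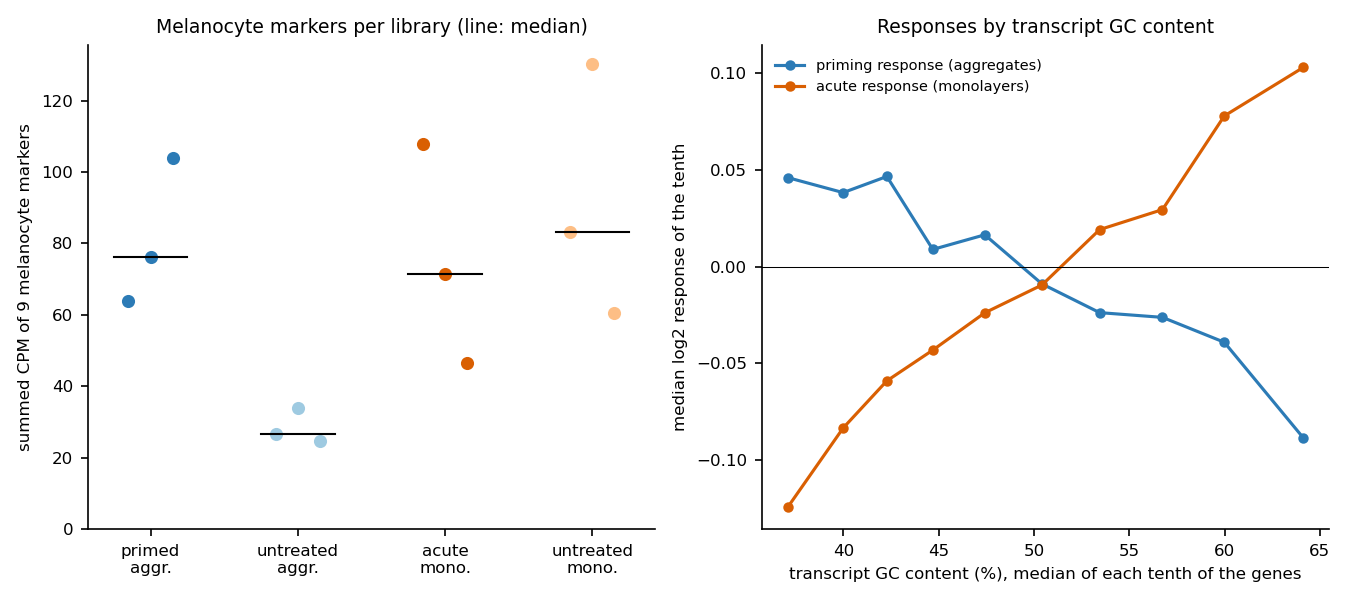
Left: summed CPM of 9 melanocyte marker genes in each of the 12 libraries (points) with the group median (line); all 3 untreated aggregates lie below the other 9 libraries. Right: median log2 priming response and median log2 acute response of 15566 genes in 10 equal bins of transcript GC content (%); the priming medians run from 0.05 down to -0.09 and the acute medians from -0.12 up to 0.10.

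The priming response comprised 3379 called genes, 21.2% of those tested, with 1836 higher (11.5%) and 1543 lower (9.66%). The acute response comprised 3222 called genes (20.2%), with 1799 higher (11.3%) and 1423 lower (8.91%). The difference itself was called for 2411 genes (15.1%), of which 1094 (6.85%) had a more positive and 1317 (8.25%) a more negative priming than acute response. A total of 1189 genes were called in both responses, 35.2% of the priming calls and 36.9% of the acute calls. Of these 1189, 927 had the same direction (612 higher and 315 lower) and 262 had opposite directions. Across all tested genes the responses were almost unrelated in size, with Pearson's r of 0.07 and Spearman's rho of 0.14, and over the 9450 genes averaging 10 CPM or more r was 0.27 and rho 0.25; genes of one library share its depth and composition and are not independent.

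By class, 780 genes (4.88% of those tested) were kept, 147 (0.921%) were kept with another size, 858 (5.37%) were lost, 925 (5.79%) were new and 262 (1.64%) were opposite. A further 1175 genes (7.36%) had only the acute response called and 1265 (7.92%) only the priming response, without a called difference. Whether those responses were kept, lost or new was undecided, and they stood in none of the 5 classes. Kept genes were 479 higher (3%) and 301 lower (1.88%), and those kept with another size 133 higher (0.833%) and 14 lower (0.0877%). Lost genes were 517 higher acutely (3.24%) and 341 lower (2.14%), new genes 501 higher after priming (3.14%) and 424 lower (2.66%), and opposite genes 88 higher after priming (0.551%) and 174 lower (1.09%). Of the 133 genes that the acute exposure raised by 1 or more on the log2 scale, 15 were kept, 33 were kept with another size, 50 were lost and 8 were opposite. Of the 1232 raised by less than 0.5, 384 were kept, 32 were kept with another size, 301 were lost and 128 were opposite. Of the 79 that it lowered by 1 or more, 9 were kept, 1 was kept with another size, 15 were lost and 5 were opposite, and of the 1152 lowered by less than 0.5, 247 were kept, 10 were kept with another size, 280 were lost and 74 were opposite. Undecided, with the acute response called but neither the priming response nor the difference, were 27 of these 133 and 387 of the 1232. Among the falls they were 49 of the 79 and 541 of the 1152. Whether these shares differed was not tested. Among the 133 genes kept as higher with another size, 108 had the smaller response in aggregates, with a median priming response of 0.31 and a median acute response of 0.76, and 25 had the larger one there. Of the 14 kept as lower with another size, 3 had the smaller response in aggregates and 11 the larger one; those 11 had a median priming response of -0.62 and a median acute response of -0.30. When GC content and length were fitted as an offset for each library, the classes held 906 kept, 165 kept with another size, 801 lost, 837 new and 222 opposite genes, and 552 of the 780 kept, 503 of the 858 lost, 516 of the 925 new and 136 of the 262 opposite genes stayed in their class. Without the 6 libraries with MYH7, which leaves 1 library in each of 3 groups, 268 differences, 2176 priming responses and 727 acute responses were called, with 235 kept, 17 kept with another size, 95 lost, 127 new and 20 opposite genes.

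**Figure D2:**
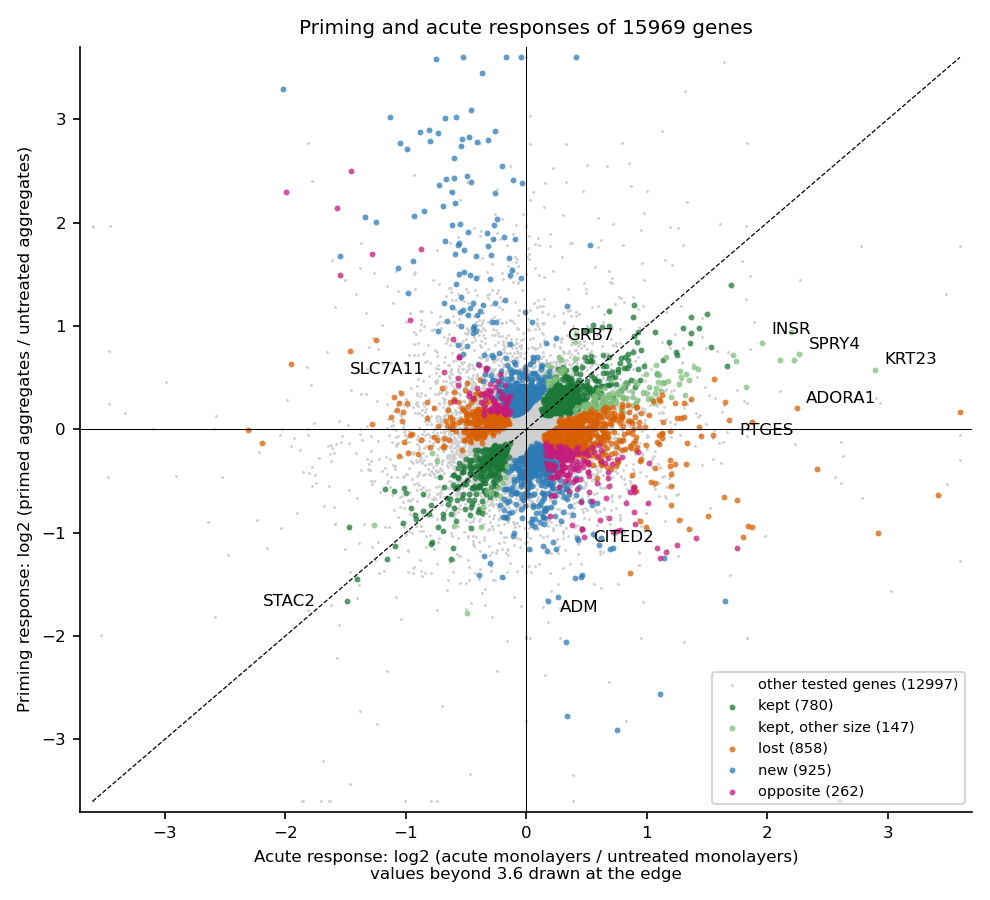
Each point is 1 of 15969 tested genes, with the log2 acute response on the x axis and the log2 priming response on the y axis; colours give the 5 classes and the dashed line marks equal responses. Lost genes spread along the x axis, new genes along the y axis, and SPRY4, INSR and KRT23 lie far below the line of equal responses.

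Of the 17 tested members of the HER family, 4 were kept (23.5%, against 4.88% of all genes tested). Another 1 was lost (5.88%, against 5.37%), and the rest stood in none of the 5 classes. Of its 17 tested members, 5 rose and 0 fell in the priming response (11.5% and 9.66% of all genes), 6 rose and 1 fell in the acute response (11.3% and 8.91%), and the difference was called for 1, the lost member ERRFI1, an inhibitor of the HER kinases, at -0.15 ± 0.07 after priming and 1.0 ± 0.07 acutely. The median priming response was 0.22 and the median acute response 0.24, against -0.00 and -0.02 over all genes tested. ERBB2 stood at 8177, 8590.1 and 8054 CPM in primed aggregates, against 6619.7, 6179.6 and 5767 in untreated ones. In monolayers, ERBB2 had 9807, 9972 and 10033 CPM after acute exposure, against 7571, 7435 and 8189 without it. Neither pair of groups overlapped. Its priming response was 0.42 ± 0.05 and its acute response 0.36 ± 0.05, and the difference was 0.06 ± 0.07 (adjusted p = 0.682). Its acute response without the 6 libraries with MYH7 was 0.26 and was not called (adjusted p = 0.0792), with a priming response of 0.52 and a difference of 0.26, while ERBB3 and GRB7 stayed kept.

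ERBB3, the kinase-impaired partner that couples HER2 to PI3K, had 537, 580.3 and 536 CPM in primed aggregates, against 352, 345 and 347 in untreated ones. In monolayers it had 400.0, 415 and 398 CPM after acute exposure, against 274, 276 and 302 without it. The responses were 0.66 ± 0.05 after priming and 0.51 ± 0.05 acutely, with a difference of 0.16 ± 0.07 (adjusted p = 0.146); with the GC and length offset the difference was 0.17 and passed (adjusted p = 0.0467). GRB7, an adaptor encoded beside ERBB2 in the same amplified segment, showed 1223, 1369 and 1328 CPM in primed aggregates, against 831, 783 and 719 in untreated ones. In monolayers, GRB7 had 1375, 1368 and 1367 CPM after acute exposure, against 719, 721 and 784 without it. All primed libraries were above all untreated ones, and the responses of 0.75 ± 0.05 after priming and 0.89 ± 0.05 acutely differed by -0.14 ± 0.08 (adjusted p = 0.247). The fourth kept member was LRIG1, a membrane protein that restrains the HER receptors, with a priming response of 0.37 ± 0.06 and an acute response of 0.56 ± 0.06. EGFR was not called after priming, at 0.04 ± 0.06, and was called acutely, at 0.23 ± 0.06, with a difference of -0.19 ± 0.09 that did not pass (adjusted p = 0.161). It passed with the GC and length offset, at -0.27 (adjusted p = 0.0376), and without replicate 2 of the primed aggregates, at -0.27 (adjusted p = 0.0225).

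Among 24 genes of FOXO and PI3K feedback, 10 rose and 3 fell after priming, whereas 14 rose and 0 fell acutely. A total of 3 had a more positive and 9 a more negative called difference. For this and every list below, the shares over all genes tested were 11.5% higher and 9.66% lower after priming. They were 11.3% and 8.91% acutely, and 6.85% and 8.25% for the difference. By class they were 4.88% kept, 0.921% kept with another size, 5.37% lost, 5.79% new and 1.64% opposite. The median priming response was 0.18 and the median acute response 0.28. INSR, the insulin receptor, had 37, 35.8 and 29.9 CPM in primed aggregates, against 18.1, 19.5 and 19.7 in untreated ones. In monolayers, INSR had 60.2, 60.6 and 60.1 CPM after acute exposure, against 13.6, 16.1 and 16.8 without it. All treated libraries were above their controls, with a priming response of 0.84 ± 0.08 and an acute response of 1.95 ± 0.08, and the difference of -1.11 ± 0.12 passed (adjusted p = 3.15e-08). IGF1R, the related receptor for insulin-like growth factor 1, PIK3IP1, an inhibitor of PI3K, and KLF9 were kept, and FOXO3 and PDCD4 were kept with another size. IRS1, the adaptor that carries the signal of both receptors, was lost: it stood at 13.4, 17.5 and 14.1 CPM in primed aggregates, against 16.1, 18.8 and 18 in untreated ones. In monolayers, IRS1 had 14, 13.7 and 14.9 CPM after acute exposure, against 9.04, 9.48 and 9.11 without it. The IRS1 difference was -0.86 ± 0.14 (adjusted p = 3.72e-05). The libraries of the aggregate groups overlapped for IRS1 and those of the monolayer groups did not. With the GC and length offset IRS1 was classed as opposite, with a priming response of -0.35.

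CITED2, a competitor of HIF-1 for its coactivator that is itself induced by HIF-1, showed 157, 192 and 156 CPM in primed aggregates, against 319.6, 317 and 349 in untreated ones. In monolayers it was at 163, 155 and 159 CPM after acute exposure, against 116, 108 and 124 without it. It was lower in each primed aggregate than in any untreated aggregate and higher in each acutely exposed monolayer than in any untreated monolayer, with a priming response of -0.97 ± 0.07, an acute response of 0.46 ± 0.07 and a difference of -1.42 ± 0.09 (adjusted p = 3.93e-12). Without the 6 libraries with MYH7 the difference was called for 5 of the 24 genes, INSR, IRS1 and CITED2 among them.

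Of 24 MAPK feedback genes, 6 rose and 4 fell after priming, whereas 15 rose and 0 fell acutely. For 14 members the difference was called, all of them lower, and without the 6 libraries with MYH7 for 6, again all lower. The members were 1 kept, 3 kept with another size, 8 lost, 1 new and 2 opposite, with a median priming response of 0.14 and a median acute response of 0.43. SPRY4, a Sprouty inhibitor of receptor to RAS signalling, had 67.9, 75.9 and 65.6 CPM in primed aggregates, against 40.8, 42.4 and 42.8 in untreated ones. In monolayers, SPRY4 had 105, 108 and 112 CPM after acute exposure, against 21.8, 22.9 and 22.6 without it. It rose in both forms, by 0.73 ± 0.07 after priming and 2.27 ± 0.07 acutely, and the difference of -1.54 ± 0.09 passed (adjusted p = 1.82e-13).

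ETV4, an ETS transcription factor induced by ERK, was at 56.5, 67.2 and 62.6 CPM in primed aggregates, against 48.8, 47.3 and 44.2 in untreated ones. In monolayers, ETV4 had 20.4, 17.9 and 19.2 CPM after acute exposure, against 5.39, 5.97 and 4.76 without it. Its untreated aggregates were already above the acutely exposed monolayers, and its responses were 0.41 ± 0.07 after priming and 1.82 ± 0.10 acutely, with a difference of -1.41 ± 0.13 (adjusted p = 1.14e-09). DUSP4, a phosphatase that removes the activating phosphates of ERK, was lost, with 185, 165 and 153 CPM in primed aggregates, against 163, 149.6 and 163 in untreated ones. In monolayers, DUSP4 had 207, 215 and 220.4 CPM after acute exposure, against 118, 119 and 121 without it. The aggregate groups overlapped, with a priming response of 0.08 ± 0.06, and the difference was -0.76 ± 0.08 (adjusted p = 1.99e-08). The other 7 lost members were SPRY1, SPRED1, JUN, JUNB, EGR1, IER3 and CCND1, which include the AP-1 and early growth response factors switched on soon after a stimulus. CCND1, the D-type cyclin that starts the cell cycle, stood at 292, 297 and 278 CPM in primed aggregates, against 278, 280.4 and 299.6 in untreated ones. In monolayers, CCND1 had 359.6, 369 and 377 CPM after acute exposure, against 269, 272 and 278 without it. Its priming response was 0.01 ± 0.05 and its acute response 0.43 ± 0.05 (difference adjusted p = 1.98e-05). The opposite members were DUSP5, at -0.56 ± 0.12 after priming and 0.90 ± 0.15 acutely, and MYC, at -0.25 ± 0.05 after priming and 0.16 ± 0.06 acutely; MYC was classed as new with the GC and length offset.

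**Figure D3:**
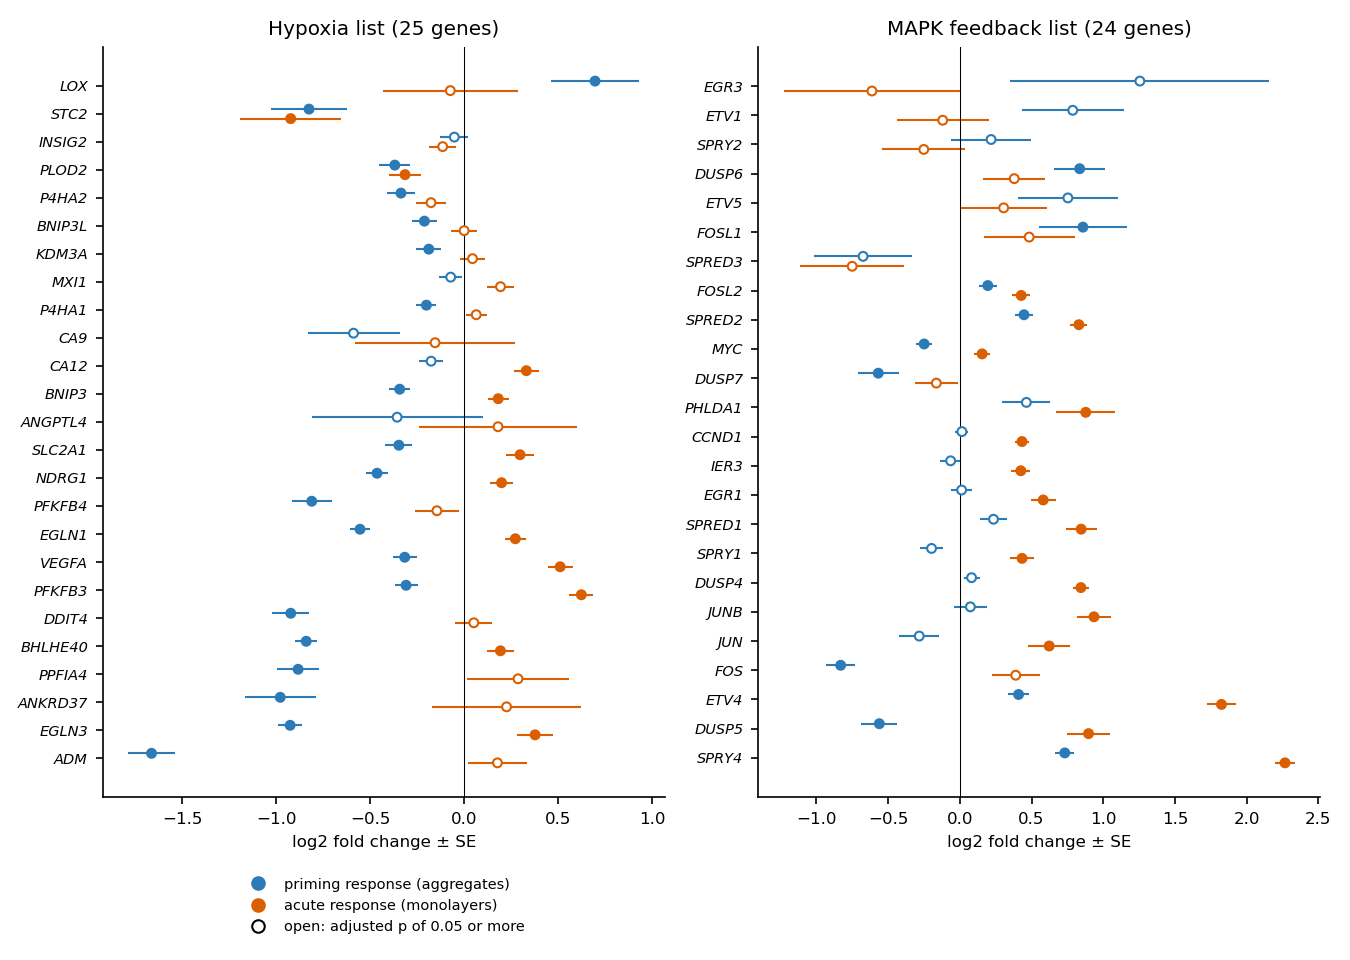
Priming response (blue, upper mark of each pair) and acute response (orange, lower mark) of each member of the hypoxia list (left) and the MAPK feedback list (right) as log2 fold change ± SE, ordered by their difference; filled marks passed an adjusted p of 0.05. In the hypoxia list 19 priming marks passed below 0 and 9 acute marks above it, and in the MAPK feedback list the acute mark of SPRY4 is farthest to the right.

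The hypoxia list held the most opposite responses. Of its 25 tested members 1 rose and 19 fell after priming, and 9 rose and 2 fell acutely. For 14 the difference was called, all lower. A total of 8 were opposite, namely EGLN1, EGLN3, VEGFA, BNIP3, NDRG1, PFKFB3, SLC2A1 and BHLHE40, against 1.64% of all genes tested, and 5 more were new. The median priming response was -0.36 and the median acute response 0.18. A total of 17 members had a called difference with the GC and length offset, all lower. Without the 6 libraries with MYH7 there were 9, all lower, but 3 acute rises against 9 with all libraries; EGLN1, EGLN3 and BHLHE40 were then new and VEGFA lost, with acute responses that were not called of 0.21 for EGLN1, 0.34 for EGLN3 and 0.22 for BHLHE40. The promoters of 2 opposite members are shown because HIF-1 binds DNA at the letters ACGTG, which are in capitals (on either strand, so that CACGT marks the same site read from the other side). Each holds the 250 bases before the start of the gene and the first 50 of it, from RefSeq for GRCh38.p14, EGLN1 at chr1:231422238-231422537 on the minus strand and BHLHE40 at chr3:4979187-4979486 on the plus strand.
EGLN1: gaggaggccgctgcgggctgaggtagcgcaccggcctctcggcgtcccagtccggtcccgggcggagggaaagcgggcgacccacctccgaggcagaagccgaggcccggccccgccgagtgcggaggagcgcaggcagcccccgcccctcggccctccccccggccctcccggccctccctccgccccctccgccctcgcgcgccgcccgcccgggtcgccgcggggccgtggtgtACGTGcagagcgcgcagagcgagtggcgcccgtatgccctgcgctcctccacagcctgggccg
BHLHE40: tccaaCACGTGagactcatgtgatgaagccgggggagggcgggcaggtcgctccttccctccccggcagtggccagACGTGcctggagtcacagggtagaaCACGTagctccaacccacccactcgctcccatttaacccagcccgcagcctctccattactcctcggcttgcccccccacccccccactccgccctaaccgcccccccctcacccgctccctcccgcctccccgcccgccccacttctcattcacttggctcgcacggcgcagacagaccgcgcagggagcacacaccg
Such letters stood in 17 of the 29 windows of the 22 list members with a window (58.6%), against 21.4% of all 35116 windows. The members were chosen as hypoxia genes, so this share describes the list and not these responses. A match describes these letters and is not a binding site shown in these cells.

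EGLN1 and EGLN3 encode prolyl hydroxylases that mark HIF for destruction when oxygen is present and are HIF targets themselves. EGLN3 had 124, 119 and 115 CPM in primed aggregates, against 215, 219.9 and 246 in untreated ones. In monolayers, EGLN3 had 13.2, 12.8 and 14 CPM after acute exposure, against 11.1, 9.48 and 10.4 without it. The untreated aggregates were far above both monolayer groups, and the responses of -0.93 ± 0.06 after priming and 0.38 ± 0.10 acutely gave a difference of -1.30 ± 0.12 (adjusted p = 9.58e-10). EGLN1 was at 91.5, 84.7 and 88.6 CPM in primed aggregates, against 128, 127 and 134 in untreated ones. In monolayers, EGLN1 had 57.3, 60.5 and 62.7 CPM after acute exposure, against 50.2, 49.8 and 49.5 without it. Its responses were -0.55 ± 0.05 after priming and 0.27 ± 0.06 acutely (difference adjusted p = 2.16e-09). BHLHE40, a repressor that responds to hypoxia and to the clock, had 132, 149.7 and 139 CPM in primed aggregates, against 239, 255 and 259.7 in untreated ones. In monolayers, BHLHE40 had 34.8, 33.3 and 33.7 CPM after acute exposure, against 31, 28.2 and 30.0 without it. Its priming response was -0.84 ± 0.06, and its acute response of 0.19 ± 0.07 passed (adjusted p = 0.0482) but did not with the GC and length offset.

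VEGFA, the main growth factor for blood vessels, showed 278, 307 and 303 CPM in primed aggregates, against 398, 396 and 311 in untreated ones. Replicate 3 of the untreated aggregates was near the primed ones, and the other untreated ones were well above them. In monolayers it had 223, 241 and 258 CPM after acute exposure, against 172, 174 and 160.3 without it. The responses were -0.32 ± 0.06 after priming and 0.51 ± 0.07 acutely and the difference -0.83 ± 0.09 (adjusted p = 2e-07); without the 6 libraries with MYH7, which leaves that replicate as the only untreated aggregate, the priming response was -0.07 and was not called, and the difference was -0.55. ADM, which encodes the vessel-relaxing peptide adrenomedullin, was the new member with the largest fall. It stood at 17.5, 31 and 23.6 CPM in primed aggregates, against 69.3, 82.7 and 76.9 in untreated ones. In monolayers, ADM had 10.4, 10.2 and 10.4 CPM after acute exposure, against 9.32, 8.7 and 9.52 without it. The priming response was -1.66 ± 0.12, the acute response 0.18 ± 0.16 (adjusted p = 0.483) and the difference -1.84 ± 0.20 (adjusted p = 1.4e-06). Stanniocalcin genes, which encode secreted regulators of calcium and phosphate, split: STC1 was new, with 18.1, 11.8 and 13.4 CPM in primed aggregates, against 31.3, 39.1 and 46 in untreated ones. In monolayers, STC1 had 12.6, 8.86 and 10.7 CPM after acute exposure, against 15.4, 11 and 10.7 without it. The related STC2 was kept, with responses of -0.83 ± 0.20 after priming and -0.92 ± 0.27 acutely.

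Most glycolysis genes fell after priming. Of 20 members, 1 rose and 15 fell after priming, with a median of -0.35, and 4 rose and 3 fell acutely, with a median of -0.01. Differences were called for 2 higher and 14 lower members, and by class 9 members were new and 3 opposite. The new ones were HK2, GPI, ALDOA, PGK1, PGAM1, ENO1, PKM, LDHA and PDK1, which span the pathway. Their priming responses ran from -0.80 for PDK1 to -0.35 for PKM. PDK1, the kinase that keeps pyruvate out of mitochondria, had 32.8, 38.9 and 33.5 CPM in primed aggregates, against 59.1, 59.7 and 64.3 in untreated ones. In monolayers, PDK1 had 14.1, 16 and 16.5 CPM after acute exposure, against 16.8, 17.1 and 16.7 without it. The PDK1 difference was -0.68 ± 0.11 (adjusted p = 3.5e-05). PFKP, a phosphofructokinase, was opposite, at 141, 151 and 136 CPM in primed aggregates, against 172, 183 and 187 in untreated ones. In monolayers, PFKP had 74.3, 77.4 and 76.4 CPM after acute exposure, against 59.3, 66.1 and 69.5 without it. The responses of PFKP were -0.34 ± 0.06 after priming and 0.23 ± 0.06 acutely. SLC16A3, the lactate exporter, was opposite as well, at 299.7, 295 and 273 CPM in primed aggregates, against 352, 319 and 324 in untreated ones. In monolayers, SLC16A3 had 379.9, 386 and 407 CPM after acute exposure, against 253, 266 and 306 without it. Its responses were -0.20 ± 0.06 after priming and 0.51 ± 0.06 acutely. Without the 6 libraries with MYH7 SLC16A3 had -0.16 after priming and 0.31 acutely. PFKP then had -0.39 after priming and 0.10 acutely, and PDK1 -0.88 and -0.24. With the GC and length offset the difference was called for 2 higher and 11 lower members, and without the 6 libraries with MYH7 for 0 higher and 8 lower ones.

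Among oxidative phosphorylation genes, falls predominated in both responses. Of 30 members, 0 rose and 17 fell after priming and 1 rose and 13 fell acutely, with medians of -0.21 after priming and -0.17 acutely. A total of 6 were kept, all lower (NDUFA9, CYCS, COX7B, ATP5F1B, ATP5MC1 and ATP5PO), and the difference was called for 3 higher and 4 lower members. CYC1, a subunit of the cytochrome bc1 complex, was opposite, with 209, 221 and 230.0 CPM in primed aggregates, against 282, 260.2 and 243 in untreated ones. In monolayers, CYC1 had 196, 217 and 218 CPM after acute exposure, against 178, 167 and 189 without it. With the GC and length offset neither of its responses was called, and the list had a median priming response of -0.12 with 11 falls and a median acute response of -0.13 with 12. It had, without the 6 libraries with MYH7, 19 falls after priming and 4 acutely.

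**Figure D4:**
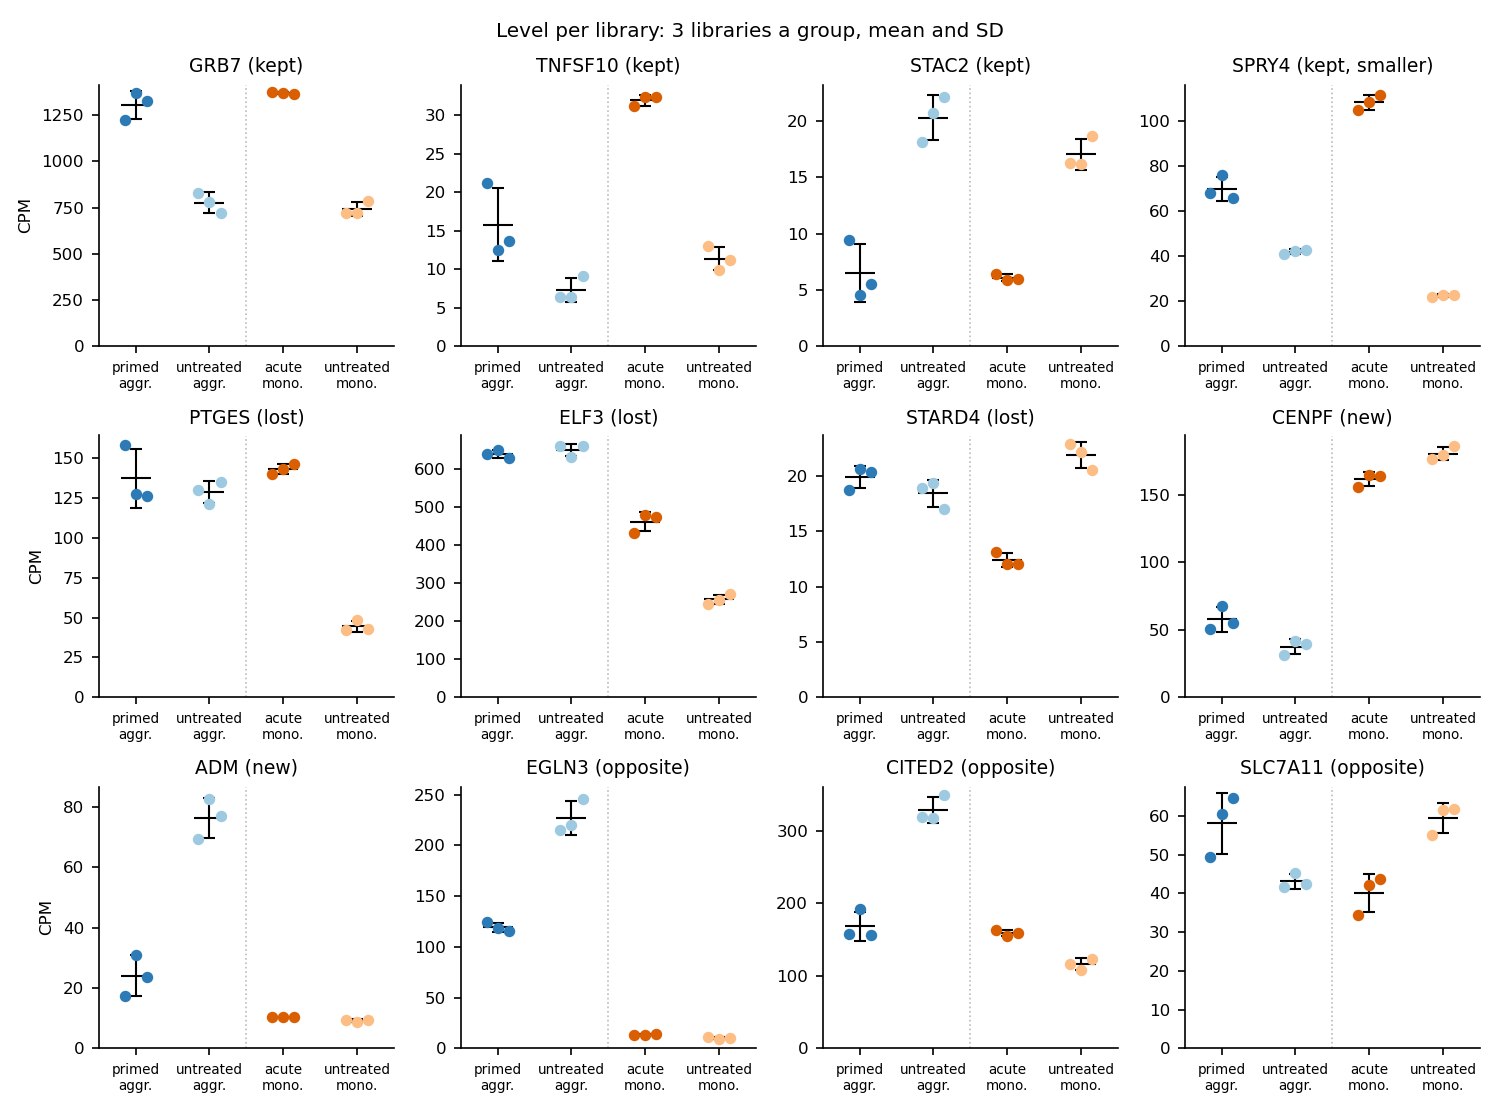
CPM of 12 genes in each library (points, 3 per group) with the group mean and SD (line and bars); primed and untreated aggregates stand left of the dotted line and acutely exposed and untreated monolayers right of it. GRB7, TNFSF10 and STAC2 were kept, SPRY4 was kept with a smaller response in aggregates, PTGES, ELF3 and STARD4 were lost, CENPF and ADM were new, and EGLN3, CITED2 and SLC7A11 were opposite.

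No cholesterol synthesis gene fell after priming, whereas most fell acutely. Of 24 members, 3 rose and 0 fell after priming, against 1 that rose and 14 that fell acutely, and the medians were -0.00 after priming and -0.23 acutely. Called differences were 13 higher and 1 lower, and 11 members were lost, 3 were new and 0 were kept. Lost genes that fell acutely included HMGCS1, IDI1, FDPS, FDFT1, SQLE, CYP51A1, MSMO1, INSIG1 and STARD4, most of them enzymes of the pathway. STARD4, a sterol carrier, had 18.8, 20.6 and 20.3 CPM in primed aggregates, against 18.9, 19.4 and 17 in untreated ones. In monolayers, STARD4 had 13.1, 12.1 and 12 CPM after acute exposure, against 22.9, 22.2 and 20.6 without it. The aggregate groups overlapped for STARD4, the monolayer groups did not, and the responses of 0.11 ± 0.09 after priming and -0.82 ± 0.09 acutely differed by 0.93 ± 0.13 (adjusted p = 4.74e-06).

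FDPS, which makes farnesyl diphosphate, was at 113, 115 and 110.1 CPM in primed aggregates, against 119, 122 and 123 in untreated ones. In monolayers, FDPS had 217, 213 and 214 CPM after acute exposure, against 316, 291 and 316 without it. The FDPS difference was 0.41 ± 0.07 (adjusted p = 5.27e-05). With the GC and length offset the list had called differences in 14 higher and 1 lower member, and in 4 higher and 0 lower members without the 6 libraries with MYH7, STARD4 and FDPS among them; the acute falls were then 5, against 14 with all libraries.

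No mitosis gene of the list fell after priming, whereas most fell acutely. Of 27 G2/M genes, 6 rose and 0 fell after priming and 0 rose and 19 fell acutely, with medians of 0.13 after priming and -0.26 acutely. For 16 the difference was called, all higher, and 10 were lost, 3 were new and 2 were opposite. The lost ones were CCNA2, CCNB1, CCNB2, AURKA, BUB1, BUB3, KIF11, KIF23, TPX2 and NUSAP1. CENPF, TTK, CCNB1 and MKI67 were each lower in every aggregate than in every monolayer. CENPF, a kinetochore protein, had 50.2, 67.6 and 55.1 CPM in primed aggregates, against 31.4, 41.8 and 39.2 in untreated ones. In monolayers, CENPF had 155, 165 and 164 CPM after acute exposure, against 176, 179 and 186 without it. It was new, at 0.62 ± 0.11 after priming and -0.16 ± 0.09 acutely. TTK, a spindle checkpoint kinase and opposite member, had 6.1, 8.49 and 7.35 CPM in primed aggregates, against 5.11, 5.36 and 6.18 in untreated ones. In monolayers, TTK had 22.1, 26.3 and 24.8 CPM after acute exposure, against 36.3, 31.7 and 29.3 without it. Its responses were 0.40 ± 0.14 after priming and -0.41 ± 0.10 acutely.

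CCNB1, the cyclin that starts mitosis, was at 23.6, 26.7 and 27.6 CPM in primed aggregates, against 19.4, 24.9 and 23.4 in untreated ones. In monolayers, CCNB1 had 76.5, 79 and 75.9 CPM after acute exposure, against 91.7, 92.5 and 91.9 without it. Its responses were 0.20 ± 0.08 after priming and -0.26 ± 0.06 acutely. The proliferation marker MKI67 was at 32.4, 45.8 and 39.4 CPM in primed aggregates, against 29, 35.5 and 32.7 in untreated ones. In monolayers, MKI67 had 160.2, 167 and 167 CPM after acute exposure, against 194, 187 and 197 without it. Neither response was called, at 0.27 ± 0.11 after priming and -0.23 ± 0.09 acutely, while the difference of 0.50 ± 0.14 was (adjusted p = 0.0207). It was not called with the GC and length offset (0.42, adjusted p = 0.0629), without replicate 2 of the primed aggregates (0.38, adjusted p = 0.0517) or without replicate 1 of the untreated aggregates (0.43, adjusted p = 0.0663). No G2/M difference was called without the 6 libraries with MYH7, where the median difference was 0.36 against 0.45 with all libraries and 5 members fell acutely, against 19. With the GC and length offset 16 were called, all higher. CDKN1B, the inhibitor p27 that trastuzumab is known to raise in HER2-dependent cells, was kept: it had 120.0, 126 and 125 CPM in primed aggregates, against 99.5, 106 and 112 in untreated ones. In monolayers, CDKN1B had 86, 95.7 and 93.2 CPM after acute exposure, against 74.6, 83 and 80.1 without it. Its responses were 0.22 ± 0.06 after priming and 0.21 ± 0.06 acutely. Neither was called without the 6 libraries with MYH7, at 0.14 after priming (adjusted p = 0.281) and 0.10 acutely (adjusted p = 0.655).

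Interferon response genes include antiviral effectors and RNA sensors. Of 27 members, 11 rose and 1 fell after priming and 2 rose and 5 fell acutely, with medians of 0.38 after priming and -0.10 acutely. Differences called were 7 higher and 1 lower. Among the 12 members averaging 10 CPM or more, 4 rose and 1 fell after priming and 2 rose and 3 fell acutely. Their medians were 0.20 after priming and 0.05 acutely, and the median difference was 0.14, against 0.37 for the list. The part of the melanocyte transcripts in these responses was not tested. By class, 3 were new (IFIT1, IFIT3 and IFI27), 2 opposite (ISG15 and MX1), 2 lost, 2 kept and 1 kept with another size. ISG15 and MX1 are shown because their promoters hold 2 copies of GAAA with 2 bases between them, as in the interferon-stimulated response element (both strands searched), in capitals; in ISG15 the run holds 2 overlapping matches. The windows, again from RefSeq for GRCh38.p14, are ISG15 at chr1:1013247-1013546 and MX1 at chr21:41420308-41420607, both on the plus strand.
ISG15: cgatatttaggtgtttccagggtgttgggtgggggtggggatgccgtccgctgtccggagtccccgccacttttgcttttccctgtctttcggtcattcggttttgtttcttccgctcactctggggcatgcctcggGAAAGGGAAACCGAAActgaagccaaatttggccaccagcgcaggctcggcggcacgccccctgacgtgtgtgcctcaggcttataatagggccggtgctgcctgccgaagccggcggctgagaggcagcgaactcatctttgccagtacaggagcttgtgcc
MX1: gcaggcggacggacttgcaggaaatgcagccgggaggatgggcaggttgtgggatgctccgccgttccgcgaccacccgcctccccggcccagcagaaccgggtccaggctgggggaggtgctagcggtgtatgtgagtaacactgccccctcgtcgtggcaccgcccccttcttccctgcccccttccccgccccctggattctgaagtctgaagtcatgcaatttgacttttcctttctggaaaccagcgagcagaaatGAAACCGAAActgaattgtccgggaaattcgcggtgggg
This arrangement stood in 18 of the 27 windows of the 21 members with a window (66.7%), against 3.57% of all 35116 windows. The members were chosen as interferon response genes, so this share describes the list and not these responses. A match is not a binding site shown in these cells. MX1 has 3 windows, of which the first with a match is shown.

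MX1, a GTPase that blocks virus replication, had 7.58, 7.33 and 7.02 CPM in primed aggregates, against 3.29, 4.08 and 4.58 in untreated ones. In monolayers, MX1 had 7.74, 5.21 and 5.31 CPM after acute exposure, against 8.54, 11.7 and 7.3 without it. The aggregate groups did not overlap and the monolayer groups did, and the responses were 0.87 ± 0.18 after priming and -0.61 ± 0.17 acutely (difference adjusted p = 6.78e-05). ISG15, a ubiquitin-like modifier, was at 3.91, 3.47 and 3.87 CPM in primed aggregates, against 2.12, 2.6 and 2.91 in untreated ones. In monolayers, ISG15 had 4.61, 4.45 and 3.66 CPM after acute exposure, against 6.57, 8.54 and 5.18 without it. The responses of ISG15 were 0.56 ± 0.20 after priming (adjusted p = 0.0478) and -0.68 ± 0.18 acutely. Without the 6 libraries with MYH7, which leaves 1 library in each of 3 groups, ISG15 had 0.36 after priming and -0.17 acutely. MX1 then had 0.67 after priming and 0.09 acutely. OAS1, which senses double-stranded RNA, was instead kept with another size, at 61, 51.4 and 50.2 CPM in primed aggregates, against 33.7, 32.9 and 33 in untreated ones. In monolayers, OAS1 had 51, 54.3 and 51.5 CPM after acute exposure, against 22, 24.5 and 23.5 without it. Its responses were 0.70 ± 0.07 after priming and 1.16 ± 0.07 acutely, with a difference of -0.45 ± 0.10 (adjusted p = 0.00135). IFIT3 was at 2.93 CPM or less in every library. No difference in the list was called without the 6 libraries with MYH7, where the median difference was 0.30 against 0.37, and 9 higher and 1 lower were called with the GC and length offset.

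**Figure D5:**
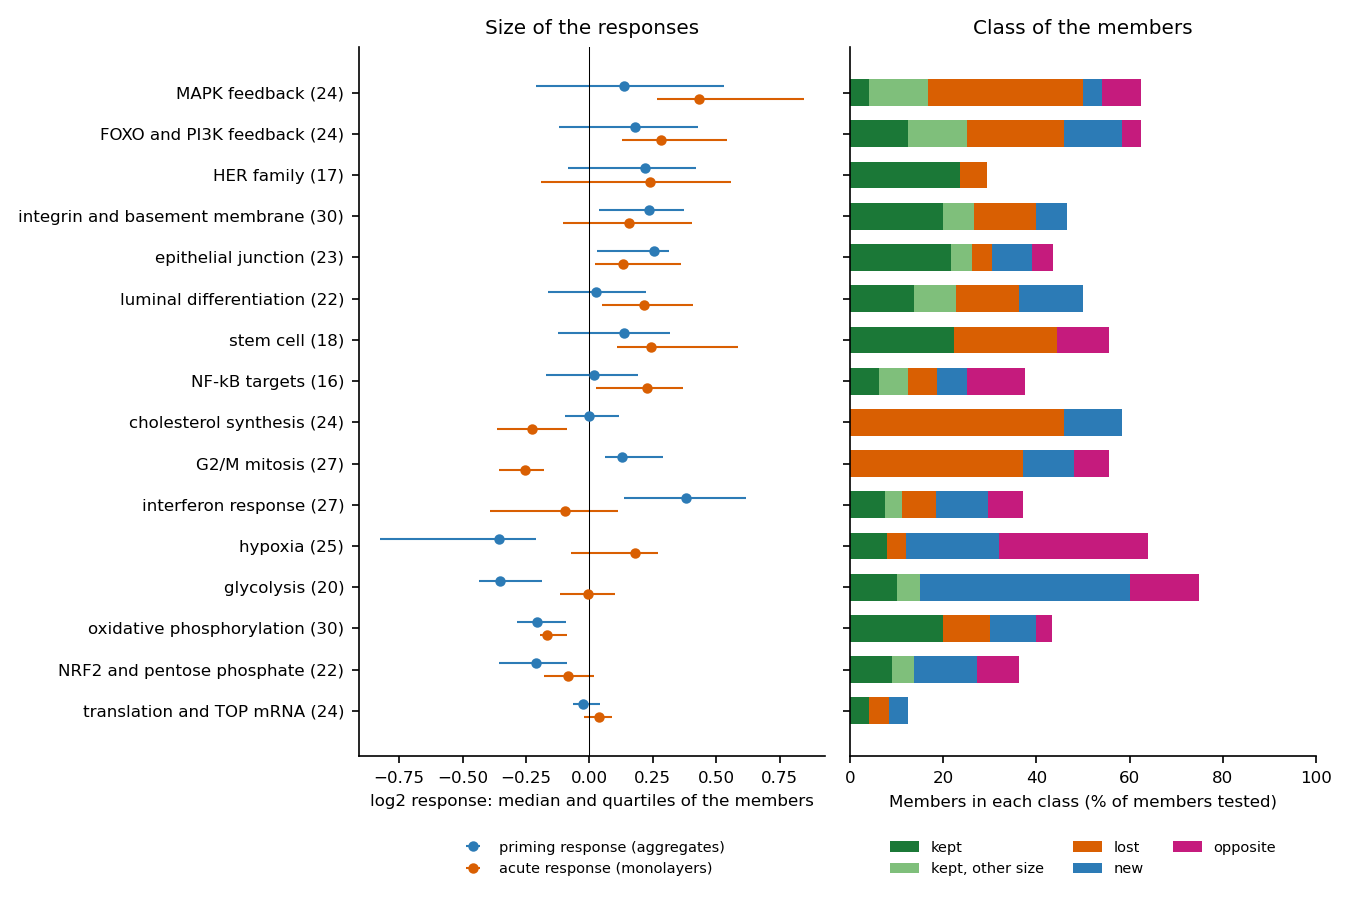
Left: median (point) and quartiles (bar) of the log2 priming response (blue, upper) and of the log2 acute response (orange, lower) for 16 gene lists, with the number of members tested in brackets. Right: percent of the tested members in each of the 5 classes; no cholesterol synthesis or G2/M gene was kept, the hypoxia list holds the longest opposite bar, and most HER family members in a class were kept.

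Of 30 integrin and basement membrane genes, 13 rose and 0 fell after priming and 10 rose and 2 fell acutely, with medians of 0.24 after priming and 0.16 acutely; 6 were kept (ITGA3, ITGB4, LAMB3, COL17A1, SDC4 and CD44) and 4 were lost. Under the GC and length offset 11 rose and 2 fell after priming and 8 rose and 4 fell acutely, with medians of 0.15 after priming and 0.03 acutely. ITGB5 was kept with another size, at 289, 289 and 267 CPM in primed aggregates, against 221, 198 and 196 in untreated ones. In monolayers, ITGB5 had 348, 342 and 345 CPM after acute exposure, against 183, 183 and 188 without it. The priming response of ITGB5 was 0.46 ± 0.05 and its acute response 0.90 ± 0.05. SDC1, a heparan sulphate proteoglycan of epithelia, was lost, at 368, 378 and 402 CPM in primed aggregates, against 426, 364 and 339 in untreated ones. In monolayers, SDC1 had 429.9, 511 and 545 CPM after acute exposure, against 248, 254 and 277 without it. The SDC1 difference was -0.91 ± 0.11 (adjusted p = 6.81e-06). Of 23 epithelial junction genes, 12 rose and 2 fell after priming and 9 rose and 0 fell acutely, with medians of 0.26 after priming and 0.13 acutely. Of these, 5 were kept, among them CLDN4, DSC2, PPL and CTNND1, which encode tight junction, desmosome and catenin proteins. Among the junction genes 4 rose and 1 fell after priming and 3 rose and 0 fell acutely when the 6 libraries with MYH7 were left out.

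Of 22 luminal differentiation genes, 6 rose and 3 fell after priming and 9 rose and 0 fell acutely, with medians of 0.03 after priming and 0.21 acutely, and the difference was called for 1 higher and 7 lower. KRT23, a type I keratin, had the largest negative difference of the list: it stood at 5.62, 8.27 and 9.45 CPM in primed aggregates, against 4.94, 5.92 and 4.82 in untreated ones. In monolayers, KRT23 had 5.05, 5.54 and 5.92 CPM after acute exposure, against 0.73, 0.78 and 0.693 without it. The aggregate groups overlapped, all acutely exposed monolayers were above all untreated ones, and its responses of 0.58 ± 0.16 after priming and 2.90 ± 0.22 acutely differed by -2.32 ± 0.28 (adjusted p = 5.44e-07). ELF3, an ETS factor of epithelial differentiation, was lost, at 639.7, 652 and 629 CPM in primed aggregates, against 660.5, 633 and 662 in untreated ones. In monolayers, ELF3 had 433, 479 and 475 CPM after acute exposure, against 246, 257 and 271 without it. The ELF3 difference was -0.87 ± 0.07 (adjusted p = 5.45e-10). FOXA1, the pioneer factor of luminal cells, was lost too, at 247, 229 and 238 CPM in primed aggregates, against 240.3, 231 and 245 in untreated ones. In monolayers, FOXA1 had 217, 228 and 221 CPM after acute exposure, against 187, 176 and 180.3 without it. PIP, SCGB2A2 and CD24 were kept, PIP and SCGB2A2 being secreted mammary proteins. Leaving out the 6 libraries with MYH7, the list had 4 acute rises and called differences in 0 higher and 2 lower members, KRT23 was lost and the difference of FOXA1 was not called.

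The Notch target HES1, from a list of 18 stem cell genes in which the difference was called for 1 higher and 6 lower, was opposite. It had 63.7, 56.5 and 59.4 CPM in primed aggregates, against 84.7, 76.3 and 78.1 in untreated ones. In monolayers, HES1 had 52.6, 54.3 and 59.1 CPM after acute exposure, against 35.9, 31.8 and 36.6 without it. Its responses were -0.41 ± 0.07 after priming and 0.67 ± 0.07 acutely, with a difference of -1.09 ± 0.10 (adjusted p = 2.22e-09). Its relative HEY1 was opposite, at -0.28 ± 0.10 after priming and 0.75 ± 0.14 acutely, and lost with the GC and length offset. Among 16 NF-kB targets the difference was called for 0 higher and 6 lower; NFKBIA, the inhibitor of NF-kB that NF-kB induces, was at 82.4, 73.4 and 85.7 CPM in primed aggregates, against 95.3, 89.1 and 88.1 in untreated ones. In monolayers, NFKBIA had 74.5, 77.3 and 79 CPM after acute exposure, against 61.8, 54.3 and 55.6 without it. Its responses were -0.17 ± 0.06 after priming and 0.43 ± 0.06 acutely, and it was lost rather than opposite with the GC and length offset. SLC7A11, the cystine importer of the ATF4 and NRF2 programmes, was opposite the other way: it had 49.4, 60.4 and 64.7 CPM in primed aggregates, against 41.7, 45.2 and 42.4 in untreated ones. In monolayers, SLC7A11 had 34.5, 42.2 and 43.6 CPM after acute exposure, against 55.2, 61.5 and 61.8 without it. The SLC7A11 difference was 1.0 ± 0.13 (adjusted p = 1.82e-06). SLC7A11 and HES1 were still opposite without the 6 libraries with MYH7, where NFKBIA was lost, no response of HEY1 was called and 2 differences were called in each of the stem cell and NF-kB lists, all lower.

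In the BCL2 family, 4 of 15 members were kept, all higher, against 4.88% of all genes. Of the 15, 5 rose and 2 fell after priming and 6 rose and 0 fell acutely; without the 6 libraries with MYH7, 4 rose and 2 fell after priming and 1 rose and 0 fell acutely. BMF and BCL2L11, which encode death-promoting BH3-only proteins, had priming responses of 1.0 ± 0.10 and 0.40 ± 0.06 and acute responses of 0.68 ± 0.09 and 0.30 ± 0.06. MCL1 and BCL2L1, which protect from cell death, had priming responses of 0.26 ± 0.05 and 0.26 ± 0.06 and acute responses of 0.34 ± 0.05 and 0.43 ± 0.06. BBC3, another BH3-only gene, was lost, at 0.03 ± 0.10 after priming and 0.55 ± 0.12 acutely. Of 6 metallothionein list members, which bind zinc and copper, 1 rose after priming and 2 rose acutely. MT1X was lost, at 18.5, 15.1 and 13 CPM in primed aggregates, against 15.2, 14 and 14.9 in untreated ones. In monolayers, MT1X had 1.04, 1.18 and 1.03 CPM after acute exposure, against 0.281, 0.39 and 0.185 without it. Its relative MT2A was kept with another size, at 0.67 ± 0.10 after priming and 2.11 ± 0.13 acutely. The difference of MT1X without the 6 libraries with MYH7 was -2.40 and was not called (adjusted p = 0.123).

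Among genes of at least 5 CPM in 1 group whose groups did not overlap, the largest kept responses included TNFSF10, the death ligand TRAIL, with 21.2, 12.5 and 13.6 CPM in primed aggregates, against 6.35, 6.38 and 9.1 in untreated ones. In monolayers, TNFSF10 had 31.1, 32.4 and 32.3 CPM after acute exposure, against 13, 9.95 and 11.2 without it. The responses were 1.12 ± 0.20 after priming and 1.5 ± 0.17 acutely and did not differ past the threshold (difference -0.39 ± 0.26, adjusted p = 0.379), except without replicate 1 of the primed aggregates, when the difference was -0.65 (adjusted p = 0.0282). STAC2, an adaptor of calcium channels, was the largest kept fall, with 9.41, 4.52 and 5.54 CPM in primed aggregates, against 18.1, 20.7 and 22.1 in untreated ones. In monolayers, STAC2 had 6.43, 5.88 and 5.96 CPM after acute exposure, against 16.3, 16.1 and 18.6 without it. Its responses were -1.66 ± 0.15 after priming and -1.48 ± 0.15 acutely; without replicate 1 of the primed aggregates the difference passed, at -0.52 (adjusted p = 0.0379). HSPB7, a small heat shock protein, fell in both as well, at 44.6, 44.4 and 36.5 CPM in primed aggregates, against 81, 75.4 and 82 in untreated ones. In monolayers, HSPB7 had 44.4, 42.8 and 41.5 CPM after acute exposure, against 101, 99.7 and 108 without it. The HSPB7 fall was larger acutely (difference 0.34 ± 0.09, adjusted p = 0.0124). RIPOR3, COL28A1, ACHE, NPY4R and KCNK3 completed the largest kept responses. Without replicate 3 of the untreated aggregates the difference passed for RIPOR3, at -0.64 (adjusted p = 0.00205), and for COL28A1, at -0.59 (adjusted p = 0.0489). NPY4R has a near-identical copy, NPY4R2, to which reads could have been assigned, and ACHE was at 1.19 CPM or less in every aggregate. For TNFSF10, COL28A1, ACHE and NPY4R at least 1 response was not called without the 6 libraries with MYH7.

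The largest lost responses were led by ADORA1, an adenosine receptor, at 34.9, 19.5 and 20.0 CPM in primed aggregates, against 23.3, 19.5 and 21.3 in untreated ones. In monolayers, ADORA1 had 16.5, 19.9 and 17.9 CPM after acute exposure, against 3.15, 3.98 and 4.21 without it. All acutely exposed monolayers were above all untreated ones, the aggregate groups overlapped, and the difference was -2.04 ± 0.27 (adjusted p = 5.84e-05). PTGES, the synthase of prostaglandin E2, had 158, 127 and 126 CPM in primed aggregates, against 130.2, 121 and 135 in untreated ones. In monolayers, PTGES had 140.2, 143 and 147 CPM after acute exposure, against 42.2, 48.3 and 42.9 without it. The PTGES difference was -1.59 ± 0.10 (adjusted p = 3.93e-12). The acutely exposed monolayers lay within the range of the 6 aggregates for PTGES, and for ADORA1 1 of them lay within that range and 2 below it. The difference of ADORA1 without the 6 libraries with MYH7 was -1.76 and was not called (adjusted p = 0.18). The largest lost falls were PRUNE2, STON2, OTOR and P2RX4, of which P2RX4, an ATP-gated channel, was at 18.2, 18.8 and 19.8 CPM in primed aggregates, against 21.6, 19.4 and 20.8 in untreated ones. In monolayers, P2RX4 had 7.09, 8.34 and 7.9 CPM after acute exposure, against 15.6, 16.8 and 14.7 without it. STON2 was not called without replicate 2 of the primed aggregates (0.95, adjusted p = 0.0997), and OTOR was kept rather than lost without the 6 libraries with MYH7. MMP24OS was among the largest lost rises at -1.04 ± 0.43 after priming and 1.80 ± 0.48 acutely; it lies antisense to MMP24, the strand setting of the counting is not stated, and its difference did not pass when only the 4 groups were fitted.

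Melanocyte genes stood among the largest new responses. Under the same limits the 8 largest positive differences were ADAM23, HTR2B, CITED1, MMP14, SERPINE2, MLANA, PMEL and GSTP1, and all 8 belonged to 202 genes whose mean was more than 5-fold lower in the other 9 libraries of the series than in these 12. Of the 501 new higher genes 42 were of this kind, with a median priming response of 2.41 and a median acute response of -0.53. The melanocyte markers moved with them as given above, and their part was not tested. Of the 8 genes, GSTP1 was classed as lost and the others as new. TYRP1, one of the melanocyte markers, was at 5.73 to 33.5 CPM in these 12 libraries and at 0.26 CPM or less in the other 9. Whether these transcripts came from AU565 cells was not tested. PMEL, a melanosome protein, had 20.4, 27.7 and 38.7 CPM in primed aggregates, against 6.05, 9.04 and 6.01 in untreated ones. In monolayers, PMEL had 38.2, 25.8 and 14.6 CPM after acute exposure, against 26.3, 42.8 and 22.3 without it. Of the 9 melanocyte markers, 8 were tested, 4 rose after priming and 0 changed acutely, with medians of 1.47 after priming and -0.31 acutely. Without the 6 libraries with MYH7, the marker medians were 1.94 after priming and 0.64 acutely. The acute responses were then 0.78 for PMEL, 1.76 for ADAM23 and 0.89 for MLANA. In that setting the acute response compares 1 library with 1 library. These are replicate 1 of the acutely exposed and replicate 3 of the untreated monolayers, whose melanocyte markers summed to 107.8 and 60.4 CPM. With all 202 genes left out there were 784 kept, 866 lost, 892 new and 260 opposite. New falls were free of these genes and included ADM, FAM43A and STC1; FAM43A had 11.3, 10.5 and 10.4 CPM in primed aggregates, against 30.6, 29.3 and 27.1 in untreated ones. In monolayers, FAM43A had 5.11, 5.69 and 5.76 CPM after acute exposure, against 3.93, 4.17 and 4.39 without it.

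Opposite responses that were higher after priming were led by PRAME, ISG15, CNTNAP2 and CCDC82, all at 9.67 CPM or less in every library. Those lower after priming were led by CDH5, ZNF771, NDUFAF8 and RAB5IF. CDH5, a cadherin of vessel walls, had 3.73, 2.65 and 2.53 CPM in primed aggregates, against 6.23, 4.65 and 4.58 in untreated ones. In monolayers, CDH5 had 12.7, 13.6 and 13.9 CPM after acute exposure, against 7.58, 7.49 and 6.56 without it. Neither pair of groups overlapped, and the responses were -0.80 ± 0.16 after priming and 0.90 ± 0.12 acutely, with a difference of -1.70 ± 0.20 (adjusted p = 2.04e-07). Of these 8 genes, CCDC82 and CDH5 had a called difference without the 6 libraries with MYH7, with a called acute response and a priming response of 0.19 and -0.64 that was not called. RAB5IF had 23.6, 15.4 and 33.5 CPM in primed aggregates, against 64.5, 61.2 and 36.4 in untreated ones. In monolayers, RAB5IF had 37.7, 58.9 and 73.7 CPM after acute exposure, against 36.6, 23.1 and 21.9 without it. Its values spread widely within each group. The transcripts of the 174 genes opposite and lower after priming had a median GC content of 56.7% and those of the 88 opposite and higher 42.1%, against 48.7% over all tested genes with a value. The median was 55.9% for lost genes higher acutely and 41.6% for those lower acutely. For new genes it was 43.9% when higher after priming and 57.1% when lower, and for kept genes 50.0% and 46.9%. Median transcript lengths were 5510 bases for new higher genes and 2490 for new lower ones, against 3439.5 over all.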

How the data were processed

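RNA was extracted with TRIzol and sequenced from TruSeq libraries, per the labels' protocols. The deposited table holds whole-number read counts per gene, not normalized. FeatureCounts, limma and the build hg38 are named in the submitters' processing notes; versions, the aligner and the strand setting are not given in the sources used here. Columns were matched to samples by name; the primed aggregates are titled only as aggregates with trastuzumab, and their treatment label gives the priming.

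Counts of all 21 libraries in 7 groups were fitted together with edgeR 4.0.16 (R 4.3.3; filterByExpr, TMM, robust quasi-likelihood), with 14 residual degrees of freedom, no covariate and 2-sided tests. Of 16553 genes, 584 with 0.0116% of counts were filtered. CPM are counts over the TMM-scaled library size. SE is the absolute log2 fold change over the root of F. The 12 libraries' depths were similar, the biological coefficient of variation was 5.98%, and replicate pairs differed by more than sampling noise (chi-square per degree of freedom 2.4 to 10.7). The fit was tested on simulated counts with 100 genes changed 1.5-fold and 100 changed 2-fold in primed aggregates only. The difference was called in the right direction for 51% and 64.9% of those tested, and 4.2% of its 119 calls were false. The simulated counts held no acute response and no trend with GC content. Alternatives were DESeq2 1.42.0, limma 3.58.1 voom, other scaling, filter, threshold and samples, a replicate block and, added after the data were seen, genes over 10 CPM, no MYH7 libraries, no set-specific genes and a GC and length offset (16103 genes with a GENCODE v29 transcript).

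Members and lists were chosen with earlier results of these data known. Named genes were the 8 largest called differences in each direction, the 4 largest of each class and direction (at least 5 CPM in 1 group and no overlap between libraries), the 3 smallest p-values in each list with at least 3 called members, and 10 genes followed throughout; other genes are named to complete a list's class. RefSeq entries matched 16373 genes. A few members of the lists are not reported here.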

Additional observations from a re-analysis of the deposited data

Results flagged for a closer look

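The difference between the priming and the acute response was itself called for 2411 genes (edgeR, adjusted p under 0.05), and 262 genes were called in opposite directions. Genes that were lower after priming and higher acutely, with a called difference, included LRRC26 with a difference of -2.89, RDH14 with -2.46, NDUFAF8 with -2.37, ZNF771 with -2.34, RAB5IF with -2.24, CDH5 with -1.70 and VEGFA with -0.83, all on the log2 scale. Genes that were higher after priming and lower acutely included CNTNAP2 with a difference of 1.26, PRAME with 1.25, ISG15 with 1.24 and CCDC82 with 1.07. With the GC and length offset LRRC26 and RDH14 were lost rather than opposite, and the other 9 stayed opposite. Without the 6 libraries with MYH7, the difference was called for CDH5, CCDC82 and VEGFA among these 11.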

How the results depend on the processing

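The 2411 called differences were 2499 with DESeq2, 2321 with limma voom, 2379 with RLE size factors, 2384 without a filter and 1982 with only the 4 groups fitted, and every class count stayed within 1.5 times under these 5 settings. Of 125 named differences, 125 kept direction and call with DESeq2, RLE factors and no filter, 123 with voom and 117 with only the 4 groups.

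Leaving out 1 library at a time gave 1750 to 2672 differences, 2457 to 3378 priming and 2359 to 3048 acute calls, 606 to 810 kept, 103 to 151 kept with another size, 611 to 996 lost, 669 to 949 new and 151 to 313 opposite genes. The opposite count was 151 without replicate 3 of the acutely exposed monolayers, 166 without replicate 1 of the untreated aggregates, 170 without replicate 2 of the primed aggregates and 170 without replicate 2 of the untreated monolayers; the cause was not tested. At an adjusted p of 0.01, which is stricter by construction, 443 genes were kept, 64 kept with another size, 506 lost, 447 new and 86 opposite.

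Added after the data were seen, leaving out the 6 libraries with MYH7 left 1 library in each of 3 groups, assumed to vary like the other groups. It gave 268 differences (26.9% higher, against 45.4% with all libraries), 2176 priming and 727 acute calls, 235 kept, 17 kept with another size, 95 lost, 127 new and 20 opposite genes. Of the named differences 48 kept their call, 76 did not pass and UQCRB turned to -0.041 (adjusted p = 0.953), against 0.46. Other added settings gave 2320 differences among genes over 10 CPM, 2376 without the set-specific genes and 2215 with the GC and length offset, where 113 of 125 named differences kept their call.

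Same-numbered replicates did not consistently deviate together: 7 of 18 pairs correlated above 0.1 (r from -0.17 to 0.32). In 6 of these 18 comparisons the same number gave the highest correlation of the 3 possible. With the replicate block there were 2339 differences, 3288 priming and 3157 acute calls, 755 kept, 144 kept with another size, 847 lost, 892 new and 246 opposite genes, and no named call changed. Genes under a few CPM have wide errors at this depth, and a response that was not called may be present below what 3 libraries a group resolve.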

Other observations

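Among 22 NRF2 and pentose phosphate genes, which counter oxidative stress, 1 rose and 10 fell after priming and 2 rose and 6 fell acutely, with median log2 responses of -0.21 and -0.08. The difference was called for 1 higher and 5 lower members. Of 28 G1/S replication genes, 1 rose and 10 fell after priming and 0 rose and 9 fell acutely, with a median of -0.14 after priming and -0.17 acutely; the difference was called for 3 higher and 2 lower members, against the 16 higher and 0 lower of the G2/M list. PCNA, RFC4, GINS1 and E2F1 were kept, and CDC6, which loads the replicative helicase, was kept with another size.

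Of 24 YAP/TAZ and actin genes, 9 rose and 2 fell after priming and 4 rose and 4 fell acutely. Of 26 ATF4 and unfolded protein genes, 7 rose and 5 fell after priming and 3 rose and 5 fell acutely. In 24 translation genes 4 rose and 0 fell after priming and 2 rose and 0 fell acutely, with medians of -0.03 and 0.04. Acute rises were 11.5% of the ATF4 list and 8.33% of the translation list, against 11.3% of all genes tested.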
